A study of Rattus norvegicus with 18 samples.

Results

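Schwann cell regulators, 8 genes in all, were read from the mRNA count table of cervical dorsal root ganglia (DRG), each taken by its RefSeq gene symbol and not by any measured value. They are the transcription factors Egr2, Sox10 and Pou3f1, the corepressors Nab1 and Nab2, the receptors Erbb2 and Erbb3 and the ligand Nrg1. These 8 genes had 10 RefSeq identifiers with reads among the 15075 identifiers of the table, and 9 of them passed the filter on low counts and were tested.

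Schwann cells wrap the axons of sensory neurons, and each myelinating cell builds and keeps its sheath under a chain of transcription factors. Sox10 is present through the whole life of the lineage, Pou3f1 marks the cell about to myelinate, and Egr2, also known as Krox20, switches on myelin genes with Sox10 and needs the corepressors Nab1 and Nab2 to do so. The axon controls this chain from outside through neuregulin, the product of Nrg1, which binds the receptor ErbB3 on the Schwann cell, and ErbB3, whose own kinase is weak, signals in a pair with ErbB2. In whole ganglia Sox10 and Erbb3 are also found in satellite glia, the cells around neuronal cell bodies, while Nrg1 is made mainly by neurons.

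Poly(A) RNA was sequenced from 18 adult Lister Hooded rats in 3 groups of 6, and each library was made from the C6 to C8 ganglia of 1 rat, those of the injected side in treated rats. Naïve rats were unoperated and untreated. The bPYX+GFP rats had both corticospinal tracts cut in the medullary pyramids and, the day after, an injection into the forelimb flexors of 1 side of an AAV1 vector carrying GFP behind the CMV promoter, which is not specific to a cell type. The bPYX+NT3 rats had the same operation and injection, with human neurotrophin-3 in the vector, and both injured groups were taken 10 weeks after injury. The injury, the vector and the injection therefore cannot be told apart between injured and naïve rats, and the comparison between the injured groups asks what neurotrophin-3 adds. Both comparisons with naïve rats share the same 6 naïve rats, and bPYX+GFP rats enter 2 comparisons.

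The rats were grouped by their number in the heading of the authors' count table. In 18 of 18 rats that column equals the counts deposited for the rat alone, but the title attached to those counts names another group for 17 rats. Between 10057787 and 16002410 read-pairs fell on genes per rat. The libraries of rat 57 (bPYX+GFP) and rat 11 (bPYX+NT3) stood apart. Of all counted read-pairs, 31.7% and 30.85% fell outside annotated genes in these libraries, the lowest of the 18 rats, and this quantity is called the no-feature share. Their summed levels of sensory neuron markers, 78524 and 84460 normalized counts, stood above the range of 45750 to 59583 in naïve rats and were the highest of their groups, whose lowest sums were 49297 and 51343. A normalized count is the number of read-pairs of a gene scaled to the mean depth of the 18 rats by TMM factors. The Schwann cell markers were present in every group: 6 of the 7 listed had reads, and their summed level was between 46316 and 51018 normalized counts in naïve rats, between 44207 and 49849 in bPYX+GFP rats and between 45079 and 49565 in bPYX+NT3 rats. Cdh19 of this list was also listed for satellite glia, so the sum is not a measure of Schwann cells alone. How much of the other markers came from other cells, such as neurons, was not tested. The tissue is a mixture, so that fewer cells of a type and less RNA per cell cannot be told apart for any gene given here.

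Of the 9 identifiers, 1 fell below naïve levels in bPYX+GFP rats at an unadjusted p under 0.05, and it was Egr2. Across all 11601 identifiers tested in that comparison 3.25% passed the same threshold, 2.52% in the lower and 0.733% in the higher direction. In bPYX+NT3 rats 0 of 9 passed against naïve rats, beside 6.01% of 11693 identifiers, of which 2.92% were lower and 3.09% higher. Between bPYX+NT3 and bPYX+GFP rats 0 of 9 passed, beside 1.73% of 11623 identifiers, 0.654% lower and 1.08% higher. The test was edgeR's quasi-likelihood test. The likelihood ratio test of edgeR and DESeq2 gave the same counts of members, 1, 0 and 0. After Benjamini-Hochberg adjustment over all genes the quasi-likelihood test called 0% of identifiers in each comparison, while in bPYX+GFP against naïve rats the likelihood ratio test called 13 and DESeq2 16 identifiers, none of them a member. No regulator separated 2 groups without overlap, which 0.241%, 0.265% and 0.0602% of all identifiers did in these comparisons.

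**Figure D1:**
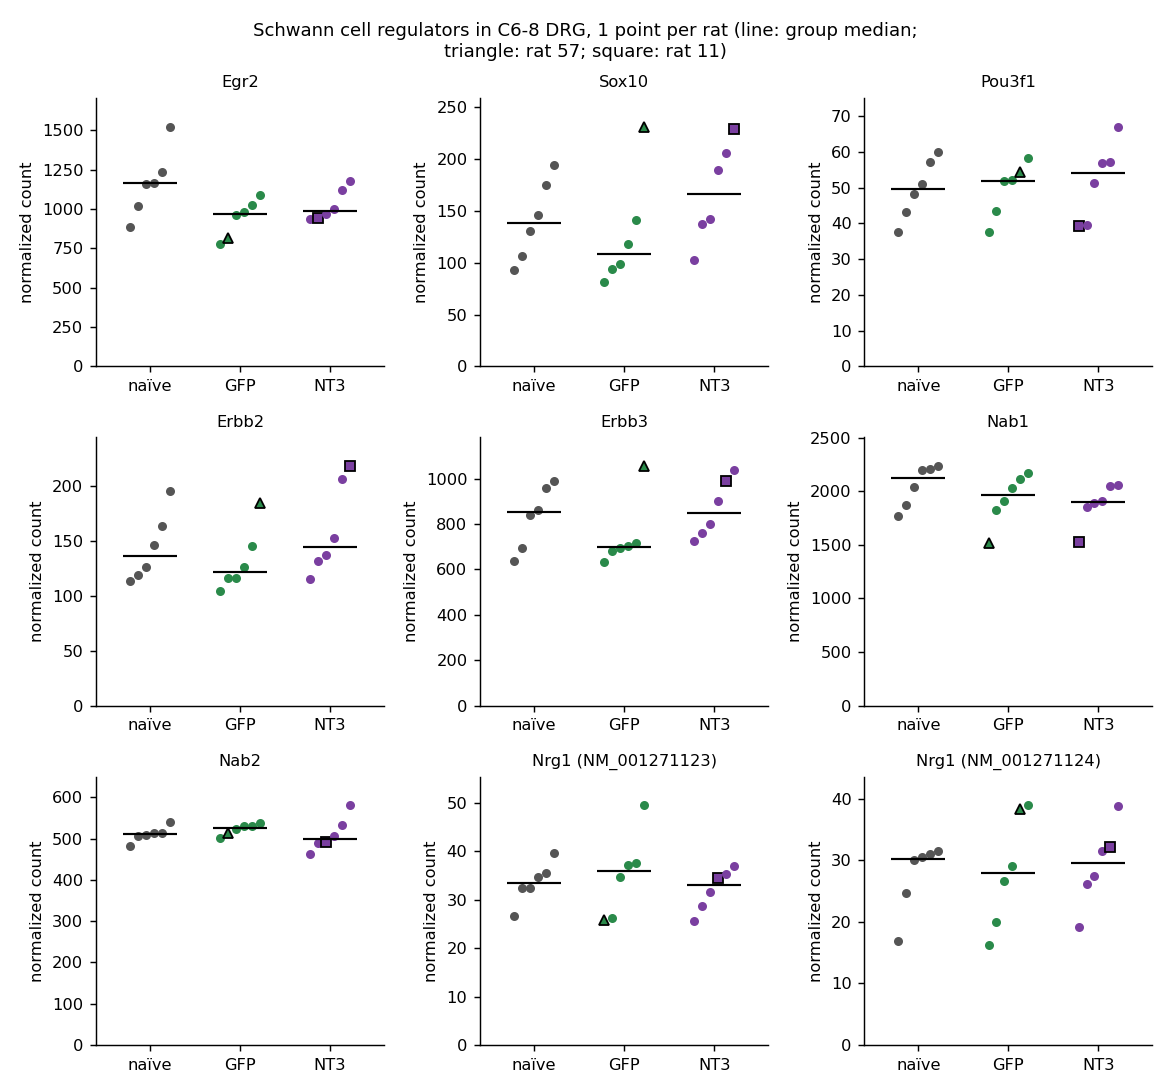
Normalized counts (vertical axes, starting at 0) of the 9 tested identifiers in each rat, by group, with the group median as a line. Egr2 lay below the naïve median of 1164 in all 6 bPYX+GFP rats, and rat 57 (triangle) stood at the top of its group for Sox10, Erbb2 and Erbb3 and at the bottom for Nab1.

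Egr2 (NM_053633), the factor that drives myelination, had between 885 and 1521 normalized counts in naïve rats (median 1164), between 781 and 1090 in bPYX+GFP rats (median 970) and between 939 and 1177 in bPYX+NT3 rats (median 984). Egr2 was below its naïve median in all 6 bPYX+GFP rats and below every naïve rat in 2 of them, and the ranges overlapped. The log2 fold change of Egr2 in bPYX+GFP against naïve rats was -0.30 (SE 0.119), and edgeR's quasi-likelihood test gave p = 0.0237 before and 0.9998 after adjustment, beside p = 0.0519 in a two-sided exact permutation test on log2 CPM (read-pairs per library of a standard size). This exact test is the one quoted for the other regulators, and with 6 against 6 rats it cannot go below 0.00216. Of the 6 bPYX+NT3 rats 5 were below the naïve median of Egr2, with a log2 fold change of -0.18 (SE 0.112, exact p = 0.199). The log2 fold change between the injured groups was 0.12 (SE 0.0913, exact p = 0.227), with an interval of 2 standard errors either side from -0.060 to 0.31.

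The fall of Egr2 depended on single rats and on the grouping. Naïve rat 49 held the highest level of the 18, 1521, and bPYX+GFP rat 52 the lowest, 781. Without rat 49 the log2 fold change in bPYX+GFP rats was -0.21 (SE 0.105), without rat 52 it was -0.26 (SE 0.121), and neither passed the unadjusted threshold. Without naïve rat 45, the lowest naïve rat at 885, the log2 fold change of Egr2 in bPYX+NT3 rats was -0.25 and passed that threshold. With the rats grouped by the titles on their own counts instead, Egr2 had a log2 fold change of 0.0091 in bPYX+GFP rats.

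The promoters of Egr2 and Nab1 are shown because each holds a motif of the factor families measured here. RefSeq's table of promoters for the GRCr8 assembly, 250 bases before to 50 after the start of a gene, held 4 of the 8 genes, Egr2, Erbb2, Nab1 and Nab2. The search covered both strands for 3 motifs, the EGR motif GCGNGGGCG, the SOX motif AACAANG and the POU octamer ATGCAAAT, which stand for the families of Egr2, Sox10 and Pou3f1. Of 33469 promoters in the table, 4.98% held the EGR motif, 14.5% the SOX motif and 1.78% the octamer. The Egr2 promoter (chr20:21054392-21054691, minus strand) held 1 octamer, which began 139 bases before the start. The Nab1 promoter (chr9:56545392-56545691, plus strand) held 4 EGR motifs, 2 on each strand, and its GC content of 81.7% exceeded that of 99.5% of the promoters. Those of Erbb2 and Nab2 held none of the 3 motifs, and no SOX motif was found in any of the 4. The motifs are in capitals, and none of them overlapped.
Egr2: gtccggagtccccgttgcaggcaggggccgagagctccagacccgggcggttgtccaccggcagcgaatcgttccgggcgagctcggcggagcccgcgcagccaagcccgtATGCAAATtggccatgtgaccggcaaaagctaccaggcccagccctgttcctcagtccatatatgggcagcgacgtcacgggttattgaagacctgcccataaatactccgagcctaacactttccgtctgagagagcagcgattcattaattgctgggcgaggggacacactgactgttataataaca
Nab1: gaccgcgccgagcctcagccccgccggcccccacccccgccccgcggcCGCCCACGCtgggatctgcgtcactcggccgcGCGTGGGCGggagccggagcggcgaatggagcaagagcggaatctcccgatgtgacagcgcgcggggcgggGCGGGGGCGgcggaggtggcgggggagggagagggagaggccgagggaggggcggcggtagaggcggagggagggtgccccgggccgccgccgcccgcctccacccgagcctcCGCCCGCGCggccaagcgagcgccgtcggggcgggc

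Sox10 (NM_019193), the factor that keeps the Schwann cell lineage, had between 93.2 and 195 normalized counts in naïve rats (median 138), between 81.3 and 231 in bPYX+GFP rats (median 108) and between 103 and 229 in bPYX+NT3 rats (median 166). The highest bPYX+GFP value was that of rat 57, the next was 141 in rat 5, and the highest bPYX+NT3 value was that of rat 11. The groups overlapped throughout. The log2 fold changes of Sox10 were -0.14 (SE 0.255, exact p = 0.509) in bPYX+GFP and 0.25 (SE 0.213, exact p = 0.316) in bPYX+NT3 against naïve rats, and 0.39 (SE 0.262, exact p = 0.147) between the injured groups. The interval of the last ran from -0.13 to 0.92, the widest among the members.

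Pou3f1 (NM_138838), the factor of the promyelinating stage, was scarce. It had between 37.6 and 60.0 normalized counts in naïve rats (median 49.5), between 37.7 and 58.4 in bPYX+GFP rats (median 51.9) and between 39.2 and 67.0 in bPYX+NT3 rats (median 54.2). Its log2 fold changes were 0.0084, 0.062 and 0.055 in the order of comparisons used for Sox10, and the widest of their intervals ran from -0.28 to 0.40. With 31 to 78 read-pairs per rat, changes of Pou3f1 smaller than these intervals were not detectable.

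The corepressors Nab1 and Nab2, which bind EGR proteins, differed in how much they varied. Nab1 (NM_022856) had between 1766 and 2234 normalized counts in naïve rats (median 2120), between 1520 and 2172 in bPYX+GFP rats (median 1968) and between 1522 and 2062 in bPYX+NT3 rats (median 1902). The lowest values of both injured groups were those of rats 57 and 11. Nab1 was below its naïve median in all 6 bPYX+NT3 rats, with a log2 fold change of -0.13 (SE 0.0832, exact p = 0.184). Of the bPYX+GFP rats 5 of 6 did, with a log2 fold change of -0.089 (SE 0.0867, exact p = 0.370), and between the injured groups it was -0.036 (SE 0.0892, exact p = 0.716). Nab2 (NM_001134874) had between 482 and 541 normalized counts in naïve rats (median 510), between 502 and 537 in bPYX+GFP rats (median 526) and between 463 and 581 in bPYX+NT3 rats (median 499). It was the steadiest of the regulators, with coefficients of variation of 3.66%, 2.47% and 8.08% in the 3 groups. The log2 fold changes of Nab2 were 0.034 and -0.0018 against naïve rats and -0.034 between the injured groups, all within an interval from -0.16 to 0.13, which bounds any change of Nab2 more closely than that of the other members.

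Erbb3 (NM_017218), the neuregulin receptor, had between 638 and 991 normalized counts in naïve rats (median 851), between 635 and 1055 in bPYX+GFP rats (median 700) and between 725 and 1038 in bPYX+NT3 rats (median 850). Of the 6 bPYX+GFP rats 5 lay between 635 and 717, and rat 57 stood alone at 1055. The log2 fold change of Erbb3 was -0.15 (SE 0.138, exact p = 0.301) in bPYX+GFP and 0.063 (SE 0.120, exact p = 0.613) in bPYX+NT3 against naïve rats. It was 0.22 between the injured groups (SE 0.133, exact p = 0.126), all 6 bPYX+NT3 rats were above the bPYX+GFP median, and the interval ran from -0.050 to 0.48.

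Erbb2 (NM_017003), the kinase partner of Erbb3, had between 114 and 196 normalized counts in naïve rats (median 136), between 105 and 185 in bPYX+GFP rats (median 122) and between 115 and 219 in bPYX+NT3 rats (median 145). Rat 57 was again the highest of the bPYX+GFP rats and rat 11 of the bPYX+NT3 rats, and the groups overlapped. The log2 fold changes were -0.12 (SE 0.165, exact p = 0.483), 0.15 (SE 0.179, exact p = 0.485) and 0.28 (SE 0.188, exact p = 0.199) in the same order. In the GRCr8 annotation the gene overlaps that of a small nuclear RNA, and whether the authors' counting used the strand is not given in the sources used here.

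Nrg1, the neuregulin ligand, had 14 identifiers in the counts, 11 of them without reads. These transcripts share most of their sequence, and read-pairs that fit several identifiers were counted to none, so that the level of Nrg1 as a gene is unknown here and 2 lncRNA genes that overlap it add to the doubt. The identifier NM_001271123 had between 26.6 and 39.6 normalized counts in naïve rats (median 33.5), between 25.9 and 49.5 in bPYX+GFP rats (median 36.0) and between 25.6 and 37.0 in bPYX+NT3 rats (median 33.0). The other tested identifier, NM_001271124, had between 16.9 and 31.5, between 16.3 and 38.9 and between 19.1 and 38.8 (medians 30.2, 27.9 and 29.5). The last, NM_001271130, had 1 read-pair in rat 17 and 0 in the other 17 rats. Both tested identifiers overlapped between all groups. The log2 fold changes of Nrg1 lay between -0.12 and 0.089, with exact permutation p between 0.524 and 0.978.

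**Figure D2:**
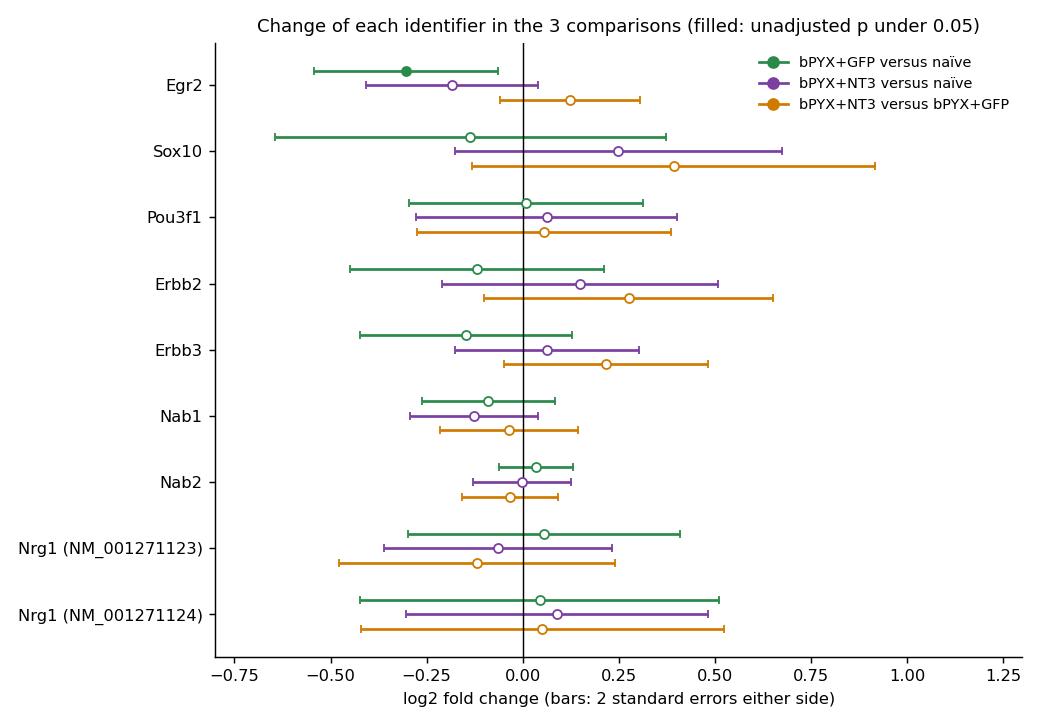
Log2 fold change (horizontal axis) of each tested identifier in the 3 comparisons, with bars of 2 standard errors either side and filled points for an unadjusted p under 0.05. The only filled point is Egr2 in bPYX+GFP against naïve rats, at -0.30, and the Nab2 bars are the shortest.

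The calls for Sox10 and the receptors between the injured groups turned on rat 57. Without it, bPYX+NT3 rats were higher than the remaining bPYX+GFP rats in Sox10 (log2 fold change 0.66, SE 0.207), Erbb3 (0.34, SE 0.0934) and Erbb2 (0.40, SE 0.170) at an unadjusted p under 0.05, with an adjusted p = 0.251 for each by edgeR. These were 3 of 9 identifiers called, beside 19.8% of the 11556 tested, since leaving out this rat raised the count of all genes called from 201 to 2291, with 0 after adjustment. Without rat 11 as well, an alternative chosen after seeing the data, Sox10 (0.55, SE 0.194) and Erbb3 (0.30, SE 0.0913) passed the unadjusted threshold and Erbb2 (0.29, SE 0.155) did not, beside 12.7% of 11477 identifiers. When all rats were kept and this share entered the fit as a covariate, the log2 fold changes of Sox10, Erbb3 and Erbb2 between the injured groups were 0.23, 0.12 and 0.13, and none passed. Against naïve rats, bPYX+GFP rats without rat 57 had Erbb3 at -0.28 (SE 0.103) and Egr2 at -0.27 (SE 0.120), 2 of 9 identifiers called beside 5.16% of all. The covariate gave the same 2 calls in that comparison, Erbb3 (-0.18, SE 0.0797) and Egr2 (-0.29, SE 0.109), beside 7.29% of all. Rats 57 and 11 carried the lowest no-feature shares and the highest neuron marker sums. They also had the lowest satellite glia marker sums of their groups, 11012 and 10246 normalized counts, where the groups reached 13415 and 12745 and naïve rats lay between 11676 and 13138. The part of these differences in the values above was not tested.

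**Figure D3:**
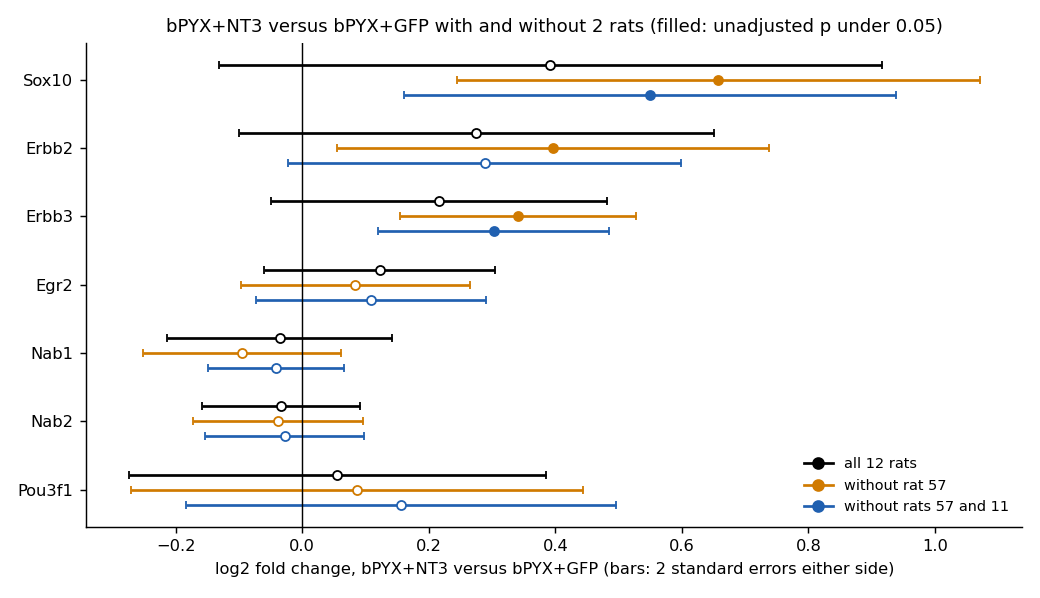
Log2 fold change (horizontal axis) of bPYX+NT3 against bPYX+GFP rats, using all 12 rats, without rat 57 and without rats 57 and 11, with bars of 2 standard errors either side and filled points for an unadjusted p under 0.05. Sox10 and Erbb3 are filled in both reduced sets and Erbb2 only without rat 57, while Egr2, Nab1, Nab2 and Pou3f1 have open points throughout.

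Over the 18 rats Sox10, Erbb3 and Erbb2 varied together and Nab1 varied against them. How often other genes are related this closely was not tested. Each of these regulators had other genes that followed it more closely, as given below. In all, 54 relations were examined, 36 between pairs of tested identifiers and the others with the no-feature share or the depth, with permutation p-values (100000 resamples, two-sided) adjusted over the 54. Sox10 and Erbb3 gave Pearson's r = 0.87 (p = 1e-05, the smallest these resamples can give, adjusted 0.00027) and Spearman's rho = 0.87 (p = 1e-05, adjusted 0.00054). Within each group r was 0.91 (naïve), 0.85 (bPYX+GFP) and 0.83 (bPYX+NT3), and without the 2 rats with the most extreme Sox10, rats 15 and 57, it was 0.87. The pair of receptors moved almost as closely. Erbb2 and Erbb3 gave r = 0.84 (p = 5e-05, adjusted 0.0009) and rho = 0.85 (p = 3e-05, adjusted 0.00081), with 0.68, 0.89 and 0.96 within groups and 0.80 without rats 11 and 2. Sox10 and Erbb2 gave r = 0.76 (permutation p = 0.00031, adjusted 0.0027) and rho = 0.73 (p = 0.00098, adjusted 0.00756), with 0.87, 0.64 and 0.74 within groups and 0.83 without rats 15 and 57.

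Nab1 was low in the rats where these 3 were high. It gave r = -0.73 with Sox10 (permutation p = 0.00035, adjusted 0.0027; rho = -0.66, p = 0.00331, adjusted 0.0149), with -0.92, -0.85 and -0.60 within groups and -0.70 without rats 15 and 57. With Erbb2, r was -0.74 (permutation p = 0.0005, adjusted 0.00338) and rho was -0.70 (p = 0.00166, adjusted 0.00996), with -0.89, -0.71 and -0.84 within groups and -0.66 without rats 11 and 2. With Erbb3, r was -0.66 (permutation p = 0.00243, adjusted 0.0126) and rho was -0.64 (p = 0.0049, adjusted 0.0189), with -0.74, -0.82 and -0.68 within groups and -0.57 without rats 57 and 2.

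The same genes followed a measure of the library. Nab1 was higher where the no-feature share was higher, with r = 0.92 (permutation p = 1e-05, adjusted 0.00027) and rho = 0.82 (p = 5e-05, adjusted 0.0009), with 0.94, 0.94 and 0.96 within groups and 0.81 without rats 11 and 57. Against that share Erbb2 gave r = -0.79 (permutation p = 9e-05, adjusted 0.00108; rho = -0.78, p = 0.00039, adjusted 0.00527), with -0.81, -0.90 and -0.72 within groups. Sox10 gave r = -0.74 (permutation p = 0.0001, adjusted 0.00108; rho = -0.74, p = 0.00069, adjusted 0.00621), with -0.81, -0.83 and -0.61 within groups, and Erbb3 gave r = -0.70 (permutation p = 0.00061, adjusted 0.00366; rho = -0.74, p = 0.00069, adjusted 0.00621), with -0.66, -0.95 and -0.56. Without rats 11 and 57 these were -0.68, -0.61 and -0.61 for Erbb2, Sox10 and Erbb3. Erbb2 was also higher in deeper libraries, with r = 0.67 (permutation p = 0.00281, adjusted 0.0126; rho = 0.66, p = 0.00384, adjusted 0.0160), 0.67, 0.68 and 0.58 within groups and 0.57 without rats 18 and 44. The part of the no-feature share and of depth in the relations among the genes was not tested.

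Egr2 stood outside this set. Its r was -0.057 with Sox10, -0.031 with Erbb2, 0.21 with Erbb3 and 0.25 with Nab1 (permutation p between 0.314 and 0.905), and 0.24 with the no-feature share (p = 0.341). With Sox10, its partner on myelin genes, Egr2 gave 0.31, -0.66 and -0.23 within the 3 groups. Pou3f1 and Nab2 varied together, with r = 0.65 (permutation p = 0.00315, adjusted 0.0131) and rho = 0.71 (p = 0.00137, adjusted 0.00925), 0.84, 0.62 and 0.70 within groups and 0.61 without rats 43 and 5. The Nrg1 identifier NM_001271124 followed Sox10 (r = 0.67, permutation p = 0.0027, adjusted 0.0126; rho = 0.69, p = 0.00225, adjusted 0.0122), with 0.68, 0.83 and 0.43 within groups and 0.53 without rats 15 and 57. It gave r = -0.59 with Nab1 (permutation p = 0.0107, adjusted 0.0414; rho = -0.67, p = 0.0032, adjusted 0.0149), with -0.59, -0.71 and -0.42 within groups and -0.55 without rats 57 and 11. Between the 2 Nrg1 identifiers r was -0.25 (permutation p = 0.316).

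**Figure D4:**
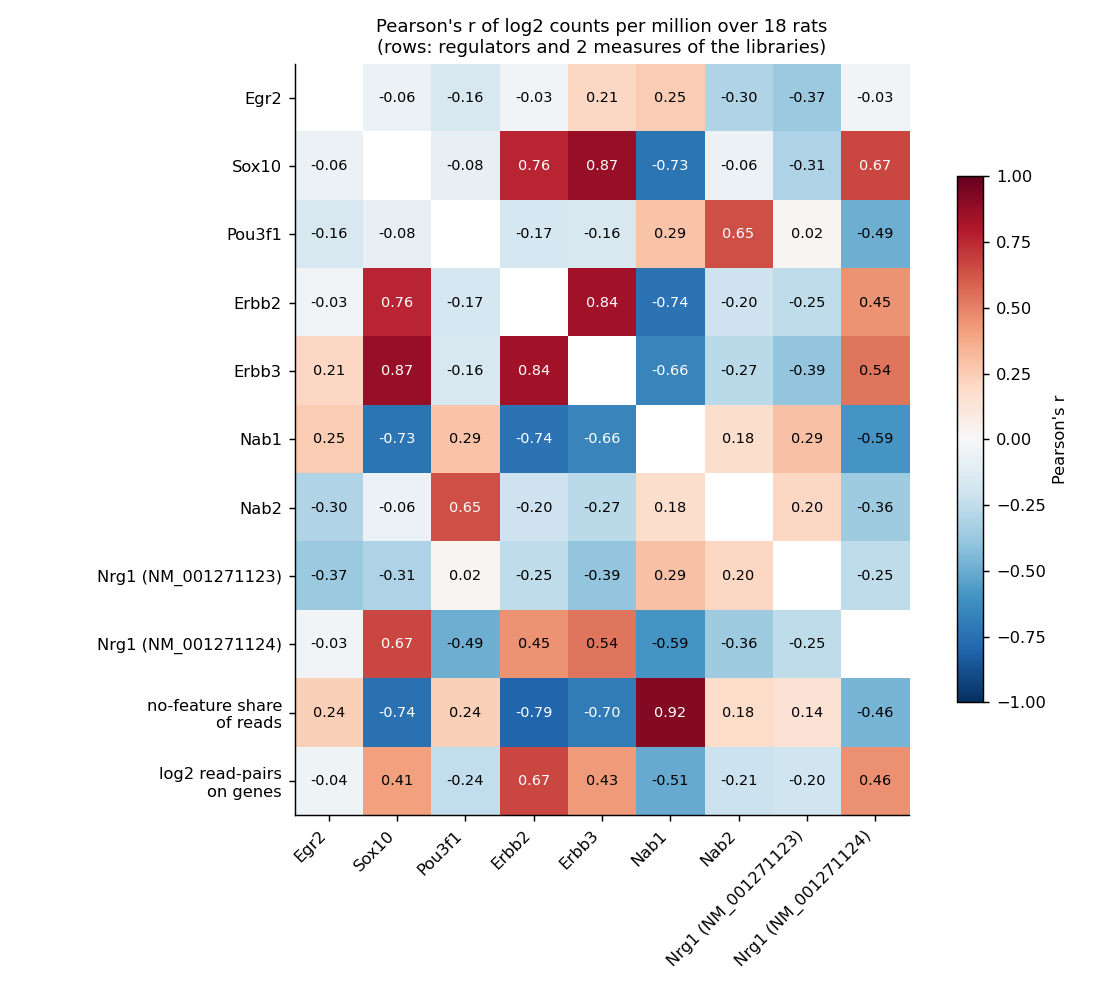
Pearson's r of log2 CPM over the 18 rats between the 9 tested identifiers (columns and upper rows) and between each of them and the no-feature share or the depth (lowest 2 rows). Sox10, Erbb2 and Erbb3 form a block of r between 0.76 and 0.87 that is opposite to Nab1, and the strongest value of all is 0.92 between Nab1 and the no-feature share.

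Ratios of reads within a rat, which do not depend on depth, were read as a description of pairs chosen after the values were seen. Egr2 had between 5.83 and 11.6 reads per Sox10 read in naïve rats (median 8.71), between 3.53 and 12.6 in bPYX+GFP rats (median 8.36) and between 4.12 and 10.9 in bPYX+NT3 rats (median 6.40). The lowest ratios of the injured groups were those of rats 57 and 11. Erbb2 reads per Erbb3 read had medians of 0.165, 0.179 and 0.175 in the 3 groups, and all rats lay between 0.150 and 0.228. Egr2 reads per Nab2 read had medians of 2.35, 1.88 and 1.91, and Nab2 reads per Nab1 read had medians of 0.235, 0.268 and 0.259. Every one of these ratios overlapped between the groups.

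The genes whose levels most resembled each regulator over the 18 rats were ranked by Pearson's r of log2 CPM among 11820 identifiers. For Erbb3 they were Cmtm5 (r = 0.95), Prx (0.93), which encodes the myelin protein periaxin, and Capg (0.92). For Sox10 they were Fpgs (0.92), Lgi4 (0.91), which encodes a protein that Schwann cells secrete, and Mindy1 (0.91). For Erbb2 they were Pla2g15 (0.93), Kcnn1 (0.93) and Uap1l1 (0.92), and for Nab1 Hnrnpu (0.98), Rap1a (0.98) and Snx16 (0.98). The values for these 4 regulators were between 0.87 and 0.96 without rats 57 and 11. The best matches of the other regulators were looser. They were Ptpdc1 (0.81), Rassf4 (0.80) and Stard13 (0.79) for Egr2, Nfe2l2 (0.82), Klf4 (0.82) and Clec2g (0.82) for Nab2, and Cxcr2 (0.76), P2ry13 (0.70) and Maco1 (0.68) for Pou3f1. The Nrg1 identifier NM_001271123 was most like Efcab10 (0.78), Magohb (0.74) and Ctps1 (0.73), and NM_001271124 most like Fdxr (0.84), Gpn1 (0.82) and Apc2 (0.81).

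Myelin genes known as targets of Egr2 and Sox10 were read beside the regulators. Of 12 listed genes, 6 were lower and 0 higher in bPYX+GFP than in naïve rats, beside 2.52% lower among all identifiers, with a median log2 fold change of -0.37 over the list and 0.012 over all identifiers. In bPYX+NT3 rats 5 were lower and 0 higher, beside 2.92% lower among all, with medians of -0.22 and 0.00051. Between the injured groups 0 of 12 passed by any of the 3 tools, with medians of 0.17 and 0.0049. No gene of the list passed after adjustment in the quasi-likelihood test. The list was drawn up with earlier results of these rats known, so its direction is a description.

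Fa2h, which hydroxylates myelin lipids, had between 599 and 982 normalized counts in naïve rats (median 722), between 392 and 601 in bPYX+GFP rats (median 476) and between 470 and 630 in bPYX+NT3 rats (median 509). Its log2 fold changes were -0.60 (SE 0.134, adjusted p = 0.461 with edgeR) and -0.48 (SE 0.126, adjusted p = 0.607) against naïve rats, whose range touched that of bPYX+GFP rats at its lower end. Ugt8, which makes the galactolipids of myelin, had medians of 6199, 3784 and 4279, with log2 fold changes of -0.63 (SE 0.148, adjusted p = 0.593) and -0.67 (SE 0.154, adjusted p = 0.607). Every bPYX+NT3 rat lay below every naïve rat for Ugt8, at most 4392 against at least 4899. Pmp22, a membrane protein of compact myelin, had log2 fold changes of -0.31 (SE 0.106) and -0.31 (SE 0.0905), and Pmp2, a lipid carrier of myelin, had -0.60 (SE 0.186) and -0.47 (SE 0.175). These 4 genes had log2 fold changes of 0.13, -0.039, -0.0027 and 0.14 between the injured groups.

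**Figure D5:**
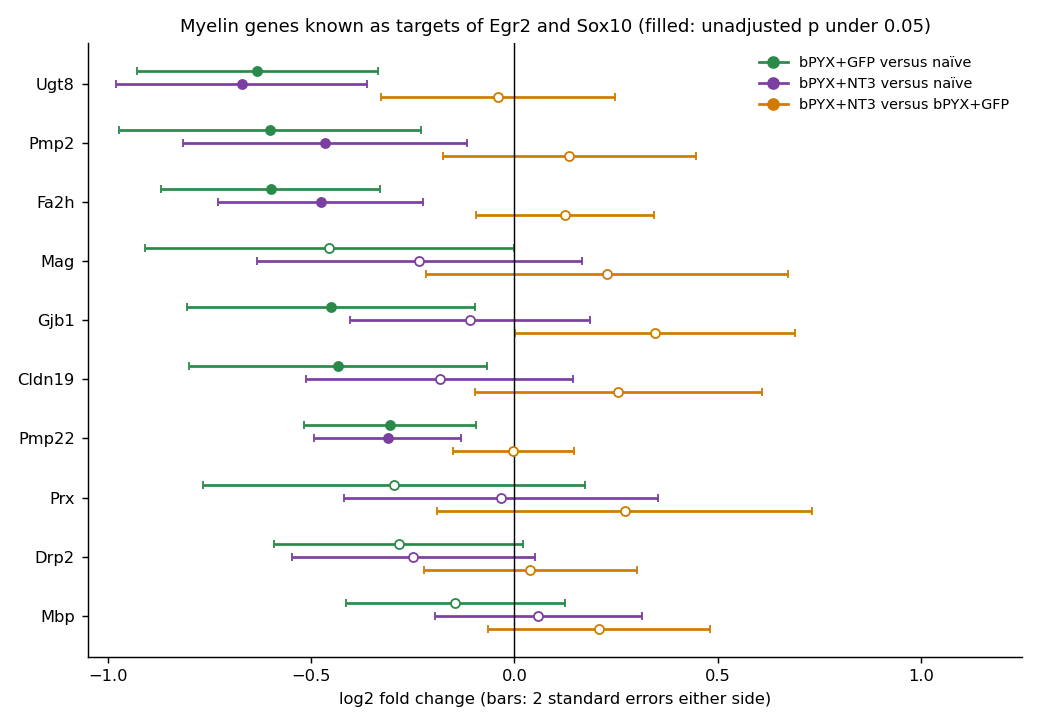
Log2 fold change (horizontal axis) of 10 of the 12 myelin genes in the 3 comparisons, with bars of 2 standard errors either side and filled points for an unadjusted p under 0.05. All 10 points of bPYX+GFP against naïve rats lie below 0, between -0.63 and -0.15, and 6 of them are filled.

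The myelin count in bPYX+GFP rats depended on the rats used. Without rat 57 it was 10 of 12, and 11 of 12 when the no-feature share was a covariate, all lower, and without naïve rat 41 or bPYX+GFP rat 21 it was 4. Grouped by the titles on each rat's own counts, 0 were lower in either injured group. Between the injured groups 4 of 12 were higher without rat 57 and 5 of 12 without rats 57 and 11, fits in which 19.8% and 12.7% of all identifiers were called in either direction. Markers of fibroblasts, which lie in the connective tissue of the ganglion, also had negative log2 fold changes against naïve rats in both injured groups. Against naïve rats 3 of 5 were lower in bPYX+GFP rats, Col1a1 (-0.49, SE 0.117), Col3a1 (-0.35, SE 0.0853) and Lum (-0.23, SE 0.0981), and 3 of 5 in bPYX+NT3 rats, Col3a1 (-0.37, SE 0.128), Col1a1 (-0.34, SE 0.119) and Dcn (-0.28, SE 0.130), beside 2.52% and 2.92% lower among all identifiers, while 0 of 5 passed between the injured groups. The summed fibroblast markers were between 28465 and 38403 normalized counts in naïve rats, between 26258 and 34008 in bPYX+GFP rats and between 20907 and 36674 in bPYX+NT3 rats, with the lowest values in rats 57 and 11. Their part in the myelin and Egr2 results was not tested.

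Among 18 tested partners and regulators of Schwann cell transcription, 2 were lower and 0 higher in bPYX+GFP than in naïve rats, beside 2.52% lower among all identifiers. They were Sox5 (log2 fold change -0.39, SE 0.170), a SOX protein of the same family as Sox10, and Zeb2 (-0.19, SE 0.0851), a repressor that Schwann cells need to mature. In bPYX+NT3 rats 0 were lower and 1 higher against naïve rats, beside 2.92% lower and 3.09% higher among all identifiers. Against bPYX+GFP rats 1 was higher, beside 1.08% among all. Both higher calls were Egr1, an immediate-early gene of the same family as Egr2. Egr1 had between 34.3 and 83.4 normalized counts in naïve rats, between 51.0 and 92.8 in bPYX+GFP rats and between 61.0 and 138 in bPYX+NT3 rats, with log2 fold changes of 0.76 (SE 0.259, adjusted p = 0.607 with edgeR) and 0.49 (SE 0.223, adjusted p = 0.851). This Egr1 call between the injured groups was lost with 1 fit over the 3 groups, with the covariate and with the titles' groups. It was also lost with a block on the replicate number and without any 1 of rats 5, 15, 18, 21, 11, 17 and 40. The Egr1 call against naïve rats was lost with the titles' groups. The count of lower calls in bPYX+GFP rats, 2 in the main fit, fell to 1 with DESeq2, its size factors or the titles' groups. It was also 1 without any 1 of rats 42, 43, 49, 15, 18 and 57, and 0 without rat 44, 45 or 5. It rose to 4 with the covariate or the replicate block and to 3 without rat 52. The median log2 fold changes of this list were -0.030, -0.091 and 0.023.

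Among 14 tested genes of neuregulin and ErbB signalling, 1 was lower in bPYX+GFP than in naïve rats, the sheddase Adam17 (-0.29, SE 0.130), which cuts neuregulin from the membrane, beside 2.52% lower among all identifiers. The count was 0 with DESeq2's size factors, with the titles' groups and without any 1 of rats 43, 44, 45, 49, 5, 15 and 21. In bPYX+NT3 against naïve rats Adam10, another sheddase, was lower (-0.25, SE 0.101) and Rnf41, a ubiquitin ligase that lowers the amount of ErbB3, was higher (0.14, SE 0.0567). Among all identifiers 2.92% were lower and 3.09% higher in that comparison. Without rat 49 neither Adam10 nor Rnf41 was called. The Adam10 call was also lost without rat 44 or 45. The Rnf41 call was also lost with the likelihood ratio test of edgeR and with the titles' groups. It was likewise lost without any 1 of rats 41, 42, 43, 2, 11 and 39. Of the 14, 0 passed between the injured groups. The median log2 fold changes of this list were -0.011, -0.0081 and 0.012, beside 0.012, 0.00051 and 0.0049 over all identifiers.

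Markers of the cells that hold these regulators, and of other cell types besides the fibroblasts given above, were read in the same way. Among all identifiers 3.25% were called in bPYX+GFP and 6.01% in bPYX+NT3 against naïve rats, and 1.73% between the injured groups. Of 6 Schwann cell markers 0 passed in bPYX+GFP against naïve rats. In bPYX+NT3 against naïve rats 1 of these markers was higher and 1 was lower. The higher was Ngfr, the low-affinity neurotrophin receptor (0.34, SE 0.136). Between the injured groups 0 of the Schwann cell markers were called. Of 5 tested satellite glia markers 0 passed against naïve rats in either group, and Kcnj10, a potassium channel, was higher in bPYX+NT3 than in bPYX+GFP rats (0.42, SE 0.153). Sensory neuron markers had 1 of 7 called, Avil in bPYX+NT3 against naïve rats (0.19, SE 0.0767). Macrophage and melanocyte markers had none of 5 and none of 2 called in any comparison. Endothelial and oligodendrocyte markers had 1 called each, both in bPYX+NT3 against naïve rats, Flt1 of 5 (0.28, SE 0.119) and Mog of 3 (-0.29, SE 0.0986). Melanocytes also carry Sox10 and Erbb3: Tyrp1 had between 9637 and 14759 normalized counts over the 18 rats, while Tyr, Dct and Pmel had fewer than 10 or no identifier in the table, and the part of such cells in the Sox10 and Erbb3 levels was not tested. Apoe, Pou4f1 and Scn7a of the glial and neuronal lists, and Opalin and Olig1 of the oligodendrocyte list, were likewise under 10 normalized counts or had no identifier. Read-pairs that fit several identifiers were counted to none, so a count under 10 need not mean that a gene is absent from the tissue.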

How the data were processed

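Poly(A) RNA of 18 rats was sequenced on a stranded library as 50 bp paired-end reads. The authors aligned reads to Rnor_6.0 with TopHat2, removed duplicates with Picard and deposited raw read-pair counts per RefSeq identifier from HTSeq, with bcl2fastq 1.8.4 named in the submitters' processing notes. HTSeq's strand setting is not given in the sources used here. The identifiers carry no transcript lengths, so levels were not compared between genes. Of 15075 identifiers 14193 matched a symbol in RefSeq's tables.

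Rats were grouped by the heading of the count table. Each pair of groups was fitted alone with edgeR 4.0.16 (R 4.3.3; TMM factors, quasi-likelihood test, no covariate) over identifiers whose reads exceeded 10 in 6 or more of the 12 rats. The threshold was an unadjusted p under 0.05, and Benjamini-Hochberg values over all identifiers were given beside it. Intervals span 2 standard errors either side. Exact permutation tests and correlations (numpy 2.4.6, with ranks from scipy 1.17.1) used log2 CPM with a prior count of 2. The scripts were tested on simulated data.

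The fits were repeated with DESeq2 1.42.0, its size factors in edgeR, the likelihood ratio test of edgeR, library size alone, 2 other filters, 1 fit over the 3 groups, the no-feature share as a covariate, the groups in the titles, a block on the replicate number, leaving out each rat, and a prior count of 0.5. Every rat was a separate animal, so p-values measure the spread between rats. The members and lists were chosen with earlier results of these data known. Named genes were all members, at most 4 genes a list by smallest p among those past the threshold, and the 3 genes most like each member by Pearson's r. Values of 2 genes of the lists are not reported here by name, though counts and medians of the lists include them.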

Additional observations from a re-analysis of the deposited data

Results flagged for a closer look

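In the bPYX+GFP group the Erbb3 level of rat 57, 1055 normalized counts, lay farther from the other 5 rats, which were between 635 and 717, than chance usually gives in a group of 6. Among 27 groups examined, 1 was singled out in this way, where chance singles out about 1 in 20.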

How the results depend on the processing

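Egr2 in bPYX+GFP against naïve rats kept its direction and its call under the other tests, size factors and filters and 1 fit over the 3 groups. Its exact p was 0.0519 with either prior count. The number of members called in bPYX+GFP against naïve rats, bPYX+NT3 against naïve rats and the injured groups was from 0 to 2, from 0 to 1 and from 0 to 3 as each rat was left out. It was 2 in the first when the no-feature share was a covariate and 0 with the groups of the titles, and 2 in the last without rats 57 and 11, an alternative chosen after seeing the data. Myelin genes called lower in bPYX+GFP rats were 11 with that covariate, 0 with the titles (1 higher) and from 4 to 10 as rats were left out. In bPYX+NT3 against naïve rats 0 were lower with the titles (4 higher), and between the injured groups 3 were higher with the titles, 5 without rats 57 and 11 and from 0 to 4 as rats were left out. The cause of these changes was not tested.

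Signs turned as follows, in values that passed no test in these other fits. Among them, Egr2 in bPYX+GFP against naïve rats had been called in the main fit, at -0.30 (edgeR's quasi-likelihood test, unadjusted p = 0.0237). With the groups of the titles, log2 fold changes in bPYX+GFP against naïve rats were 0.0091 for Egr2, 0.030 for Nab1, and -0.10 and -0.063 for the Nrg1 identifiers NM_001271123 and NM_001271124. In bPYX+NT3 against naïve rats they were 0.030 for Egr2, -0.19 for Sox10, -0.21 for Erbb2, -0.045 for Erbb3, 0.13 for Nab1, and 0.030 and -0.047 for Nrg1. For the injured groups they were -0.031 for Sox10, -0.11 for Pou3f1, -0.066 for Erbb2, 0.10 for Nab1 and 0.13 for NM_001271123. With library size alone, Pou3f1 was -0.0020 in bPYX+GFP against naïve rats, Nab2 0.029 in bPYX+NT3 against naïve rats, and Nab1 0.0026 and Nab2 0.0031 between the injured groups. With the covariate, bPYX+NT3 against naïve rats gave -0.028 for Erbb2, -0.023 for Erbb3 and 0.0061 for Nab2, and the injured groups gave 0.052 for Nab1 and -0.048 for NM_001271124. With DESeq2's size factors Nab2 was 0.0010 in bPYX+NT3 against naïve rats. As each rat was left out, Pou3f1 went from -0.058 to 0.074, from -0.022 to 0.13 and from -0.027 to 0.13 in the 3 comparisons. NM_001271124 went from -0.078 to 0.16, from -0.0025 to 0.18 and from -0.068 to 0.17, and NM_001271123 from -0.066 to 0.13 in bPYX+GFP against naïve rats. In bPYX+NT3 against naïve rats Erbb3 went from -0.0032 to 0.12 and Nab2 from -0.031 to 0.028, and between the injured groups Nab1 went from -0.096 to 0.015.

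With a replicate block 2 members were called in bPYX+NT3 against naïve rats, Egr2 (-0.17) and Nab1 (-0.13), beside 2962 identifiers against 703 without it. The block called 130 identifiers between the injured groups, against 201. Same-numbered rats of 2 groups correlated between -0.402 and 0.534, 10 of 18 pairs were over 0.1, and 5 of 18 correlated best with their own number. In bPYX+NT3 against naïve rats, where the block raised the calls, the values were 0.332, 0.534, -0.303, 0.487, 0.286 and 0.405. Whether the numbers pair the rats was not tested. Identifiers called in bPYX+GFP against naïve rats were 846 with the covariate and 174 with the titles against 377, in bPYX+NT3 against naïve rats 330 with the titles, and between the injured groups 315 without a filter and 1462 without rats 57 and 11. Leaving out each rat gave from 272 to 595, from 365 to 1387 and from 95 to 2291. Library size alone moved the split between the injured groups from 125 higher and 76 lower to 167 and 41. Depth limits Pou3f1 and the tested Nrg1 identifiers, with 13 to 78 read-pairs per rat.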
